A study of Rattus norvegicus with 12 samples.

Results

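A set of 10 chemokine genes was followed in cultured rat astrocytes exposed to the compound PT109B. They are Cxcl1, Cxcl2, Cxcl10, Cxcl12, Cx3cl1, Ccl2, Ccl3, Ccl4, Ccl7 and Ccl20, chosen by gene symbol, and all 10 of 10 were among the 9721 genes of the deposited table and among the 9491 genes tested. The cells were wild-type primary astrocytes from the midbrain of newborn Sprague-Dawley (SD) rats, kept in DMEM with fetal bovine serum in every group. RNA-seq was done in 4 groups of 3 libraries: control cells (0 h) and cells given 10 µM PT109B for 1.5, 3 or 6 h. The labels name no vehicle for the control and do not say whether libraries of one group are separate cultures or animals. The p-values below therefore rest on the spread of libraries within groups, which could be technical only.

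Chemokines are small secreted proteins that direct the movement of leukocytes through G protein-coupled receptors, and they are displayed on heparan sulfate at cell surfaces. Astrocytes are a main source of chemokines in the inflamed brain, where cytokines such as interleukin-1 and tumor necrosis factor drive their transcription, in many cases through NF-κB. Cxcl1 and Cxcl2 attract neutrophils through Cxcr2, Ccl2 and Ccl7 attract monocytes through Ccr2, and Ccl3 and Ccl4 are typical products of activated microglia and macrophages. Cxcl10 is an interferon-inducible ligand of Cxcr3 on T cells, Ccl20 is the ligand of Ccr6, Cxcl12 is a constitutive ligand of Cxcr4, and Cx3cl1 (fractalkine) is a membrane-bound ligand of Cx3cr1 on microglia.

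Cxcl2 rose 5.05-fold by 6 h and had the largest called change among the 10 genes. Ccl7 and Ccl2, the monocyte attractants, rose 2.61-fold and 2.03-fold, and Cxcl12 fell to 0.522 of its control level. Cxcl1, the gene next to Cxcl2, did not pass the test at any time against control, and its mean level at 6 h was 0.786 of control. None of the 10 genes passed the test at 1.5 h.

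Promoter sequence was at hand for 7 of the 10 genes (build GRCr8, which may not be the build used for counting). The set of promoters used here had no entry for Ccl2, Ccl3 and Ccl4. The 150 bases before the start of transcription are shown for the neighbours Cxcl1 and Cxcl2, which took different courses, for Ccl7, which rose, and for Cxcl12, which fell. Capitals mark matches to GGGNNNNNCC or its reverse complement GGNNNNNCCC, the general pattern of an NF-κB site.
Cxcl1, chr14:17479322-17479471, minus strand: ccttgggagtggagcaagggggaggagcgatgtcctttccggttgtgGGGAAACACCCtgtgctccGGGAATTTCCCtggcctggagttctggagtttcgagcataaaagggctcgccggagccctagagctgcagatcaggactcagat
Cxcl2, chr14:17467256-17467405, minus strand: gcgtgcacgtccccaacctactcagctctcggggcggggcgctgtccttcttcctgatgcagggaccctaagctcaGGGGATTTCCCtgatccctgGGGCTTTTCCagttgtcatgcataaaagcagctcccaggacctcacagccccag
Ccl7, chr10:67513945-67514094, plus strand: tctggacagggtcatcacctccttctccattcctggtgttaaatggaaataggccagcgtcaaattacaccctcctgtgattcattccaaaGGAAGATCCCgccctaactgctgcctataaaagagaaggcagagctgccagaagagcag
Cxcl12, chr4:152060631-152060780, plus strand: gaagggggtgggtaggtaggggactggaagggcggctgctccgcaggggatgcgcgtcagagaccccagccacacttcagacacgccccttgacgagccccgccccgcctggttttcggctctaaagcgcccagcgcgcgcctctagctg

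Counted from the base before the start as -1, the matches began at -103 and -84 in Cxcl1, at -74 and -54 in Cxcl2 and at -59 in Ccl7, and each of those at -103, -84 and -74 overlapped a second match shifted by 1 base. In windows of 300 bases, 250 before and 50 after the start, Cxcl10 and Ccl20 held matches too, and the Cxcl12 and Cx3cl1 windows held none. The pattern is common: 47.3% of all 33469 promoter windows held it. TGANTCA, the AP-1 pattern, was in 7.33% of windows and was found in Cxcl10 at -96 and in Ccl7 at -73. GAAANNGAAA (or its reverse complement TTTCNNTTTC), a pattern of interferon regulatory factors, was in 3.92% of windows and among the members only in that of Cxcl10, at -243. Both strands were searched. A match describes the letters of a window and does not show binding.

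Library totals ran from 9368967 to 12498047 estimated counts. In each treated group 1 library stood apart from the other pair, namely replicate 3 at 1.5 h, replicate 3 at 3 h and replicate 1 at 6 h: over the tested genes its log2 levels correlated with the other 2 of its group at 0.897 to 0.945, against 0.990 to 0.991 within the pairs and 0.985 to 0.992 among controls. The mean log2 CPM of 21 microglia markers was 6.40 to 6.62 in the controls, 3.36 and 3.37 in replicates 2 and 1 at 1.5 h and 6.75 in replicate 3, 5.99 to 6.55 at 3 h and 5.81 to 6.41 at 6 h, and no marker was at 0 in any library. Their summed level was 3147 to 3807 CPM in controls and 381 to 4043 CPM at 1.5 h. Astrocyte markers, such as Gfap, Aqp4 and Sox9, had a mean log2 CPM of 7.48 to 8.12 over all libraries, and none was at 0. The summed level of 10 fibroblast and meningeal markers split the libraries the same way: it was 4508 to 6049 CPM in controls and 4642 to 5349 CPM in the 3 libraries that stood apart, against 12640 and 13042 CPM in the other pair at 1.5 h, 12161 and 11980 CPM at 3 h and 9247 and 8857 CPM at 6 h. The sum of 10 neuron markers was 467 to 554 CPM in controls, 1456 and 1316 CPM in the pair at 3 h and 1146 and 1097 CPM in the pair at 6 h, while their mean log2 CPM there was 3.86 to 4.11 against 4.40 to 4.90 in controls. The part of these other cell types in the chemokine values was not tested, apart from the fits with the microglia level. These are bulk libraries, so fewer cells of a type and less RNA per cell cannot be told apart. Values below are CPM (counts relative to TMM-scaled library totals) unless FPKM (which also divides by gene length) is named, and changes are log2 fold changes ± SE from the quasi-likelihood test of edgeR. The p-values were adjusted over all tested genes (Benjamini-Hochberg), and a gene passed when its adjusted p was below 0.05.

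In control cells the monocyte attractants and Cxcl1 dominated. On the FPKM scale Ccl2 stood at 1237 ± 51.3 (SD, n = 3), Ccl7 at 786 ± 37.4 and Cxcl1 at 613 ± 113, which ranked them 18th, 36th and 47th of the 9721 genes by mean level. The lowest Ccl7 library (749 FPKM) lay above the highest Cxcl1 library (704 FPKM), so the order of these 3 held in the values of every control library. Ccl3 followed at 91.3 ± 13.2 FPKM. Cx3cl1 at 49.1 ± 5.13 and Cxcl10 at 48.5 ± 13.2 FPKM did not differ beyond their spread, nor did Ccl20 at 31.7 ± 3.43, Ccl4 at 30.5 ± 6.65, Cxcl2 at 27.3 ± 3.47 and Cxcl12 at 26.9 ± 3.09 FPKM. Ccl2, Ccl7 and Cxcl1 together held 88.8% to 90.4% of the summed FPKM of the 10 genes in controls and 87.6% to 95.3% in treated libraries. By 6 h the mean order was Ccl2 (2227 ± 787 FPKM), Ccl7 (1807 ± 379), Cxcl1 (427 ± 161), Ccl3 (226 ± 132), Cxcl2 (121 ± 31.0) and Ccl4 (110 ± 57.7), so that Cxcl2 had moved from the ninth place to the fifth and Cxcl12 was last at both times. Over the 3 libraries the ranges of neighbours among these 6 overlapped, except those of Ccl7 and Cxcl1. Within every 6 h library, though, Ccl2, Ccl7, Cxcl1, Ccl3 and Cxcl2 kept this order. Cxcl2 lay above Ccl4 in replicates 2 and 3 and below it in replicate 1 (157 and 177 FPKM).

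**Figure D1:**
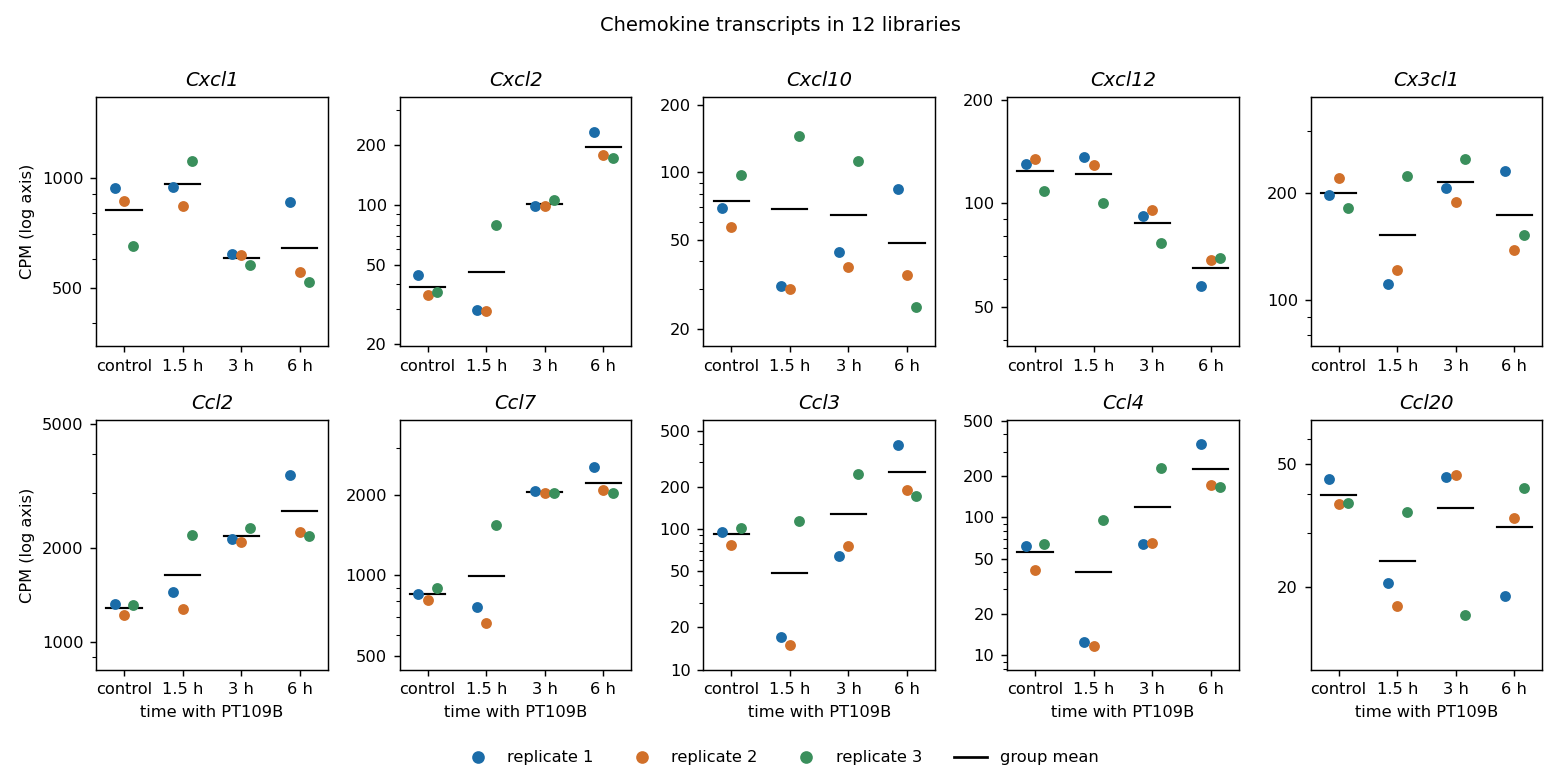
Levels of the 10 chemokine genes, 1 panel per gene, with time with PT109B on the x axis and CPM on a logarithmic y axis; points are single libraries coloured by replicate number and bars are group means (n = 3). Cxcl2 reached 174 to 235 CPM at 6 h from 35.6 to 44.5 in controls, and Ccl3 and Ccl4 at 1.5 h split into 2 libraries below 18 CPM and 1 above 90 CPM.

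Cxcl2 and Cxcl1 encode related neutrophil attractants. Cxcl2 measured 44.5, 35.6 and 36.5 CPM in the control libraries, 29.9, 29.2 and 79.8 CPM at 1.5 h, 99.5, 99.3 and 106.9 CPM at 3 h, and 234.8, 180.0 and 174.0 CPM at 6 h. All 3 h libraries lay above all control and 1.5 h libraries, and all 6 h libraries lay above those of 3 h. At 1.5 h replicates 1 and 2 were below every control and replicate 3, the library with the high microglia level, was above every control. The log2 change against control was 0.25 ± 0.33 at 1.5 h (adjusted p = 0.681), 1.39 ± 0.34 at 3 h (adjusted p = 0.0175) and 2.34 ± 0.34 at 6 h (adjusted p = 0.000893), so Cxcl2 rose at 3 h and 6 h. The 6 h call held in all 28 alternative settings, with values of 2.09 to 2.50. At 3 h the value stayed between 1.08 and 1.51, but its call was lost without control replicate 2 (1.33), control replicate 3 (1.35), 3 h replicate 1 (1.38) or 3 h replicate 2 (1.37).

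Between treated times Cxcl2 was higher at 3 h than at 1.5 h by 1.14 ± 0.33 (adjusted p = 0.0385) and at 6 h than at 1.5 h by 2.08 ± 0.34 (adjusted p = 0.00149). From 3 h to 6 h the difference was 0.95 ± 0.33 (adjusted p = 0.143), which did not pass, although the libraries of these groups did not overlap. The call between 1.5 and 6 h held in all 28 alternative settings. The one between 1.5 and 3 h held in 14 of 28, with values of 0.60 to 1.79, and was lost under total-count and implied-depth scaling, with no filter, in a fit of the 2 groups alone, and without any 1 control or 3 h library, 1.5 h replicate 1 or 2, or 6 h replicate 2 or 3.

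Cxcl1 measured 939, 863 and 652 CPM in controls, 941, 837 and 1109 CPM at 1.5 h, 618, 615 and 579 CPM at 3 h, and 859, 551 and 519 CPM at 6 h. The 3 h libraries were below all controls, and the 6 h libraries were split, with replicate 1 among the controls and the other 2 below them. The changes of 0.23 ± 0.21, -0.44 ± 0.21 and -0.35 ± 0.21 did not pass (adjusted p = 0.536, 0.156 and 0.23). At 3 h Cxcl1 did pass as lower in 6 of 28 alternative settings (-0.75 to -0.33 over all settings). Those were total-count and implied-depth scaling, the 3 fits to FPKM, and the fit without the 3 libraries that stood apart. Cxcl1 was lower at 3 h than at 1.5 h by -0.67 ± 0.21 (adjusted p = 0.0488), a call that held in 16 of 28 alternative settings (-0.91 to -0.56) and was lost with the replicate block, in a fit of the 2 groups alone, and without 6 h replicate 2 or any 1 library of the other groups. Without 6 h replicate 1 the value at 6 h was -0.61 (adjusted p = 0.0261).

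The ratio of the 2 neighbouring genes shows their parting within each library. Cxcl2 over Cxcl1, in FPKM, was 0.0444, 0.0386 and 0.0524 in controls and 0.0298, 0.0327 and 0.0674 at 1.5 h, then 0.151, 0.151 and 0.173 at 3 h and 0.256, 0.306 and 0.314 at 6 h. The 6 h ratios were thus all above those of 3 h, which were all above those of the earlier groups. No protein-coding gene lies between them on chromosome 14 in RefSeq (GRCr8). A ratio within a library does not depend on how libraries are scaled. Cxcl1, Cxcl2 and Cxcl3 are similar in sequence, and how reads shared between them were counted is not given in the sources used here.

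**Figure D2:**
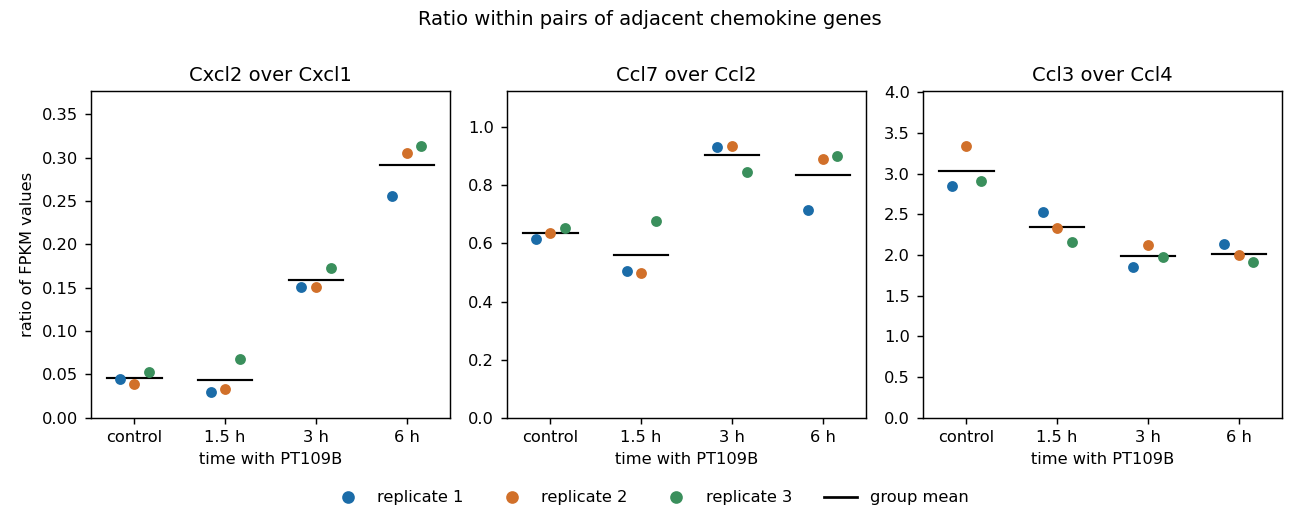
Ratio of the FPKM values of adjacent chemokine genes in each library, with time with PT109B on the x axis, the ratio on the y axis from 0, points for libraries and bars for group means (n = 3). Cxcl2 over Cxcl1 went from 0.0452 in controls to 0.292 at 6 h, and Ccl3 over Ccl4 was above 2.8 in every control and below 2.6 in every treated library.

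Cxcl3, the third gene of this neutrophil-attracting group, belongs to the other chemokines measured. It was 19.4, 15.9 and 11.1 CPM in controls, 16.7, 18.5 and 14.2 CPM at 1.5 h, 42.8, 40.4 and 27.4 CPM at 3 h and 54.6, 60.8 and 57.3 CPM at 6 h. It rose by 1.25 ± 0.22 at 3 h (adjusted p = 0.00372) and by 1.90 ± 0.22 at 6 h (adjusted p = 0.000286), with libraries in order of time that did not overlap between control, 3 h and 6 h, and both calls held in all 28 alternative settings. Cxcl6, a further ligand of this kind, fell at 6 h by 1.65 on the log2 scale (adjusted p = 0.0231), from 42.5 to 105.0 CPM in controls to 20.5 to 30.2 CPM. That call was lost without control replicate 1 or 2 or 6 h replicate 1 or 3, with values of -1.96 to -1.45 over all settings.

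Ccl2 and Ccl7 encode monocyte attractants and lie next to each other on chromosome 10, again with no protein-coding gene between them. Ccl7 measured 848, 808 and 896 CPM in controls, 762, 664 and 1544 CPM at 1.5 h, 2076, 2028 and 2035 CPM at 3 h and 2547, 2082 and 2042 CPM at 6 h. Every library of 3 h and 6 h was above every earlier library. Ccl7 rose by 1.27 ± 0.28 at 3 h (adjusted p = 0.0107) and 1.39 ± 0.28 at 6 h (adjusted p = 0.00429), both in all 28 alternative settings, and its 3 h and 6 h levels differed by 0.12 ± 0.27 (adjusted p = 0.881). At 1.5 h the change was 0.22 ± 0.27 (adjusted p = 0.664).

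Ccl2 measured 1327, 1225 and 1319 CPM in controls, 1449.6, 1281 and 2196 CPM at 1.5 h, 2146, 2086 and 2319 CPM at 3 h and 3426, 2246 and 2186 CPM at 6 h. All 3 h and 6 h libraries were above all controls. Ccl2 rose by 1.02 ± 0.24 at 6 h (adjusted p = 0.00885), a call that held in all 28 alternative settings with values of 0.69 to 1.11. At 3 h its change of 0.76 ± 0.23 was just past the threshold (adjusted p = 0.0423) and lost the call in 17 of 28 alternative settings, with values of 0.46 to 0.83. Those were scaling by upper quartile, total count or implied depth, no filter, the replicate block, 3 fits to FPKM, and leaving out any control, any 3 h library, 1.5 h replicate 1, or 6 h replicate 2 or 3. At 1.5 h the value was 0.35 ± 0.23 (adjusted p = 0.401).

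Ccl7 gained on Ccl2 at 3 h. The FPKM ratio of Ccl7 over Ccl2 was 0.616 to 0.654 in controls, 0.506, 0.499 and 0.677 at 1.5 h, 0.932, 0.937 and 0.845 at 3 h and 0.716, 0.893 and 0.900 at 6 h. All 3 h and 6 h ratios were above all those of controls and 1.5 h.

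**Figure D3:**
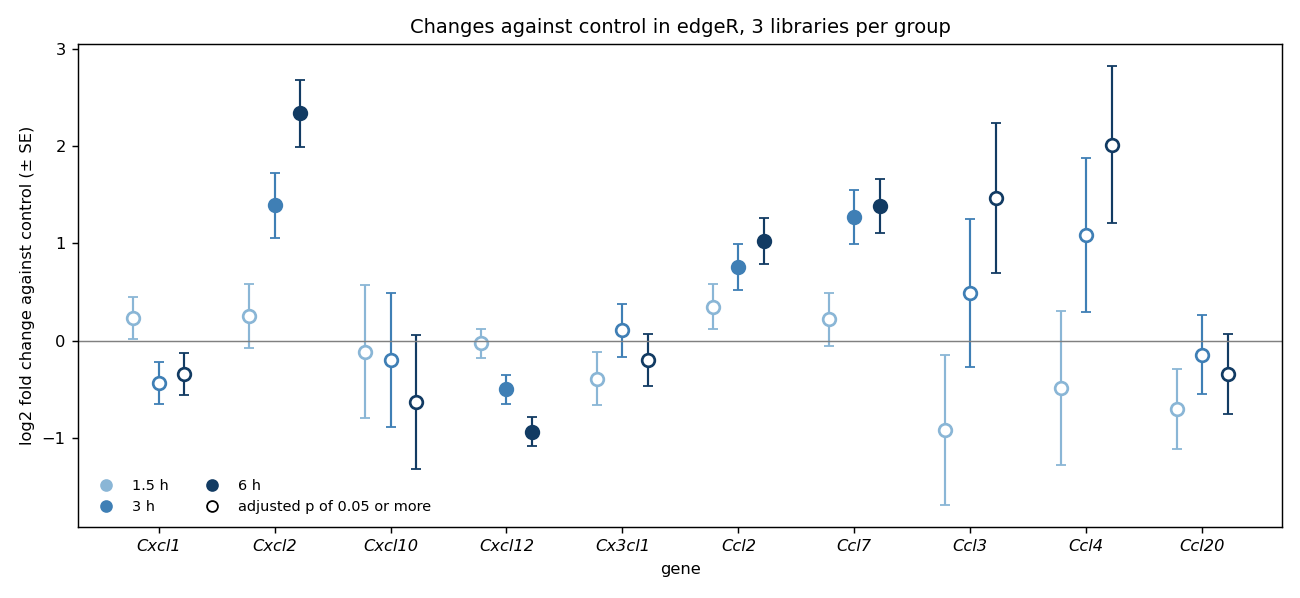
Log2 fold change against control for each of the 10 genes (x axis) at 1.5, 3 and 6 h (light to dark), with bars of ± 1 SE from edgeR; filled points passed at an adjusted p below 0.05 and open points did not. Cxcl2 (2.34), Ccl7 (1.39), Ccl2 (1.02) and Cxcl12 (-0.94) are filled at 6 h, and Ccl3 and Ccl4 have the widest bars together with Cxcl10.

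Ccl3 and Ccl4 were the most variable members together with Cxcl10. Ccl3 measured 96.0, 76.4 and 102.4 CPM in controls, 17.1, 15.0 and 113.7 CPM at 1.5 h, 64.7, 75.7 and 244.9 CPM at 3 h and 397, 189 and 172 CPM at 6 h. Ccl4 measured 61.6, 41.8 and 64.4 CPM in controls, 12.4, 11.8 and 96.0 CPM at 1.5 h, 64.0, 65.1 and 227 CPM at 3 h and 339, 173 and 165 CPM at 6 h. In each treated group the highest value was that of the library that stood apart, and the 6 h libraries of both genes were all above the controls. The 6 h changes were 1.47 ± 0.77 for Ccl3 (adjusted p = 0.167) and 2.01 ± 0.81 for Ccl4 (adjusted p = 0.0807), and neither passed. Ccl4 did pass there with the replicate block (2.13, adjusted p = 0.0433), by limma-voom (1.95, adjusted p = 0.0432) and in a fit of the 2 groups alone (adjusted p = 0.00411), and Ccl3 in the last of these (1.45, adjusted p = 0.0140). Both passed at 6 h against 1.5 h (2.38 ± 0.80, adjusted p = 0.0392, and 2.50 ± 0.83, adjusted p = 0.037), in 13 and 14 of the 27 alternative settings that gave an adjusted p. Those 2 calls were lost under total-count and implied-depth scaling, in a fit of the 2 groups alone, without any 1 control or 6 h library, and without replicate 1 or 2 of 1.5 h or 3 h (and, for Ccl3, with no filter), with values of 1.50 to 3.98 and 1.64 to 4.23.

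The levels of these 2 genes moved with the microglia markers. Over the 12 libraries the correlation of log2 CPM with the microglia level was 0.821 for Ccl3, 0.764 for Ccl4, 0.853 for Cx3cl1 and 0.667 for Cxcl10, against 0.456 for Cxcl2, 0.498 for Ccl7 and 0.369 for Ccl2 (a description; libraries of a group share their treatment). With the microglia level as a covariate Ccl3 rose by 1.80 and Ccl4 by 2.38 at 6 h (adjusted p = 0.00301 and 0.000617). Without 1.5 h replicate 3 both also passed at 6 h, with 1.47 for Ccl3 (adjusted p = 0.0377) and 2.02 for Ccl4 (adjusted p = 0.0104). The covariate fit also called Cxcl2 and Ccl7 higher at 1.5 h, with 0.92 and 0.77 (adjusted p = 0.00806 and 0.0334). Yet 1.5 h replicates 1 and 2, with microglia levels of 3.37 and 3.36, lay below every control in both genes. Without the 3 libraries that stood apart both were called lower at 1.5 h, with -0.40 and -0.26. The sign of these 1.5 h calls thus depends on the fit. How far cell composition contributes to these values was not tested.

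**Figure D4:**
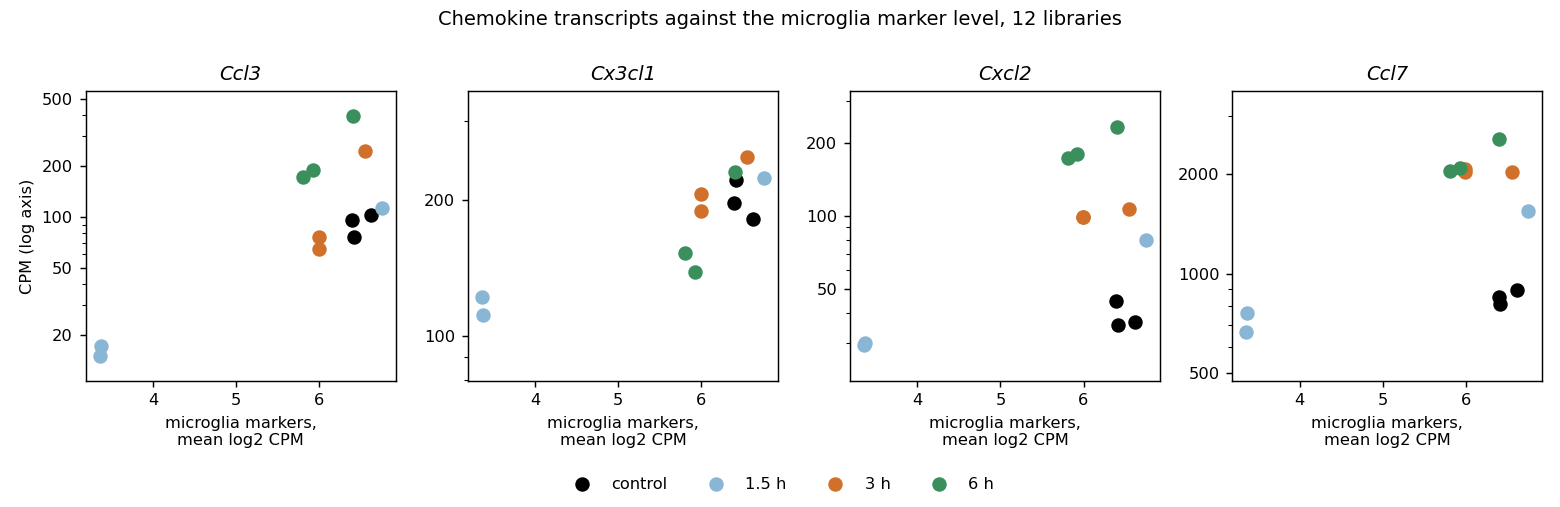
CPM (logarithmic y axis) of Ccl3, Cx3cl1, Cxcl2 and Ccl7 in each of the 12 libraries against the mean log2 CPM of 21 microglia markers (x axis), coloured by group. The 2 libraries of 1.5 h near 3.4 on the x axis hold the lowest values of every gene shown. For Ccl3 these are 15.0 and 17.1 CPM, and for Cxcl2 29.2 and 29.9 CPM. Cxcl2 at 3 h and 6 h exceeds the controls at similar or lower microglia levels, and the part of cell composition was not tested.

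Within this pair, too, the ratio changed: Ccl3 over Ccl4 in FPKM was 2.85, 3.34 and 2.91 in controls, 2.53, 2.33 and 2.16 at 1.5 h, 1.85, 2.12 and 1.98 at 3 h and 2.14, 1.999 and 1.91 at 6 h. All 9 treated ratios lay below all controls, and the part of cell composition in this was not tested. The 3 pairs were chosen for description after their values had been seen, and no test was made of the ratios.

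Ccl20, the ligand of Ccr6, was a low transcript of 178 to 521 estimated counts per library. It measured 44.6, 37.0 and 37.5 CPM in controls, 20.6, 17.5 and 35.0 CPM at 1.5 h, 45.4, 46.1 and 16.3 CPM at 3 h and 18.7, 33.6 and 41.7 CPM at 6 h. All 1.5 h libraries were below the controls, and at 3 h and 6 h the library that stood apart was the lowest, the opposite of Ccl3. No change passed (-0.70 ± 0.41, -0.14 ± 0.41 and -0.34 ± 0.41, adjusted p = 0.342, 0.809 and 0.536).

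Cxcl10 measured 69.2, 57.1 and 97.3 CPM in controls, 31.2, 30.0 and 145.2 CPM at 1.5 h, 43.8, 37.6 and 112.9 CPM at 3 h and 84.6, 34.7 and 25.0 CPM at 6 h. The libraries that stood apart were within or above the control range and the other 6 treated libraries were below it. No change passed (-0.12 ± 0.68, -0.20 ± 0.68 and -0.63 ± 0.69, adjusted p = 0.938, 0.843 and 0.5). Cxcl11, which shares the receptor Cxcr3, had a like pattern (r = 0.949 over the 12 libraries). Of 21 tested interferon response genes, 1 passed at each time, Irf1 at 1.5 h (0.89 ± 0.16, adjusted p = 0.0151; lost without any 1 control or 1.5 h replicate 2, 0.78 to 1.04 over all settings) and Tap1, a peptide transporter, at 3 h (0.69 ± 0.14, adjusted p = 0.00698; lost in 6 of 28 alternative settings, namely total-count and implied-depth scaling, the 3 fits to FPKM and without 3 h replicate 2, with 0.38 to 0.78 over all settings) and 6 h (0.87 ± 0.14, adjusted p = 0.00134), each higher. Over all tested genes 1.95%, 13.50% and 18.7% were called higher at the 3 times, and 1.37%, 7.94% and 11.8% lower. The median log2 change of the interferon list was -0.14, -0.55 and -0.39 at the 3 times, against -0.01, -0.03 and -0.02 for all tested genes.

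Cxcl12 was the one member that fell against control. It measured 130, 134 and 108 CPM in controls, 136, 129 and 100.3 CPM at 1.5 h, 91.4, 95.2 and 76.4 CPM at 3 h and 57.4, 68.1 and 69.0 CPM at 6 h. The 3 h libraries were below all controls, and the 6 h libraries below all others. It fell by 0.50 on the log2 scale at 3 h (SE 0.15, adjusted p = 0.0364) and by 0.94 at 6 h (SE 0.15, adjusted p = 0.00133), after a value of -0.03 ± 0.15 at 1.5 h (adjusted p = 0.927). The 6 h call held in all 28 alternative settings (-1.17 to -0.80). The 3 h call was lost without control replicate 1 (-0.47), control replicate 2 (-0.44), 1.5 h replicate 2 (-0.50) or 3 h replicate 1 (-0.57). Its receptor Cxcr4 measured 40.5, 35.0 and 40.7 CPM in controls and 19.9, 21.9 and 18.7 CPM at 6 h, and fell by 0.94 on the log2 scale (adjusted p = 0.0254). That call was lost without control replicate 1 or 3 or 6 h replicate 2 or 3, with values of -1.16 to -0.86 over all settings. Ackr3, the scavenger receptor of Cxcl12, did not pass at any time.

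Cx3cl1 measured 197, 222 and 181 CPM in controls, 111, 122 and 225 CPM at 1.5 h, 207, 189.7 and 249.6 CPM at 3 h and 231, 139 and 152 CPM at 6 h. Its changes of -0.39 ± 0.27, 0.11 ± 0.27 and -0.20 ± 0.27 did not pass (adjusted p = 0.415, 0.79 and 0.586). The low libraries were replicates 1 and 2 at 1.5 h and 2 and 3 at 6 h, and the 3 that stood apart were all above 220 CPM. Cx3cr1, its receptor and a microglial gene, was at 14.6, 18.4 and 25.3 CPM in controls and 5.82, 3.18 and 3.66 CPM at 6 h, and fell by 2.19 on the log2 scale (adjusted p = 0.0422), a call that held in 21 of 28 alternative settings and was lost without any 1 of the 3 controls, 3 h replicate 1 or 2, or 6 h replicate 2 or 3 (-2.59 to -1.42 over all settings). At 1.5 h and 3 h it measured 2.67 to 20.9 and 6.98 to 18.5 CPM, highest in the libraries that stood apart. Adam10, which sheds Cx3cl1 from the cell surface, fell by 0.54 at 3 h (adjusted p = 0.0197) and by 0.99 at 6 h (adjusted p = 0.000557) on the log2 scale, and its 3 h call was lost without any 1 control or 3 h replicate 1 or 2 (-0.84 to -0.47 over all settings).

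Set against the whole table, 4 of 10 members passed at 3 h, 3 of them higher, where 13.50% of tested genes were called higher and 7.94% lower. At 6 h the same numbers passed, 3 higher and 1 lower, where 18.7% of tested genes were called higher and 11.8% lower. At 1.5 h none passed by edgeR (0 at an unadjusted p under 0.05 too, and 0 called by DESeq2, limma-voom or limma-trend), where 1.95% and 1.37% were called. The median log2 change of the 10 was -0.07, 0.30 and 0.41 at the 3 times. Scaled by total count or by implied depth, where the median of all tested genes was itself -0.34 or -0.31 at 3 h and -0.24 or -0.22 at 6 h, 2 members were higher and 2 lower at 3 h (Cxcl1 then passed as lower, and Ccl2 did not pass), and the 6 h split stayed 3 to 1. At 3 h only 1 or 2 members passed without any 1 control or without 3 h replicate 1 or 2. Calls over all tested genes fell too in those fits, to 586 to 683 higher and 260 to 345 lower, from 1281 and 754.

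Between treated times, Cxcl2 and Ccl7 were higher and Cxcl1 and Cxcl12 lower at 3 h than at 1.5 h, where 12.10% of genes were called higher and 8.23% lower. Scaled by total count or implied depth, 2 members were called there, both lower. The calls of Cxcl12 and Ccl7 between 1.5 and 3 h held in 15 and 19 of 28 alternative settings, and each was lost without 1.5 h replicate 1 or 2 or 3 h replicate 1 or 2, that of Cxcl12 also without any 1 control and that of Ccl7 without 6 h replicate 2 or 3 (-0.72 to -0.23 and 0.60 to 1.52). At 6 h against 1.5 h, 5 members were higher (Cxcl2, Ccl2, Ccl3, Ccl4, Ccl7) and Cxcl12 was lower, where 20.5% and 17.1% of genes were called, and the split was 2 to 2 under those scalings. With 1 library left out at a time, 0 to 7 members passed at 3 h against 1.5 h, with 0 without replicate 1 or 2 of either time and 7 without 1.5 h replicate 3, where 25.1% of genes were called higher and 17.3% lower. The call of Ccl2 at 6 h against 1.5 h held in 6 of 28 alternative settings (0.35 to 0.94) and was lost without any 1 library other than replicate 3 of 1.5 h. At 6 h against 3 h none passed by edgeR, DESeq2, limma-voom or limma-trend, 2 had an unadjusted p under 0.05 in edgeR, and 2.33% and 1.72% of genes were called. These comparisons share their groups, so their calls are not independent.

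Leaving out the 3 libraries that stood apart narrowed the spread and raised the share of called genes, to 28.7% higher and 30.5% lower at 1.5 h and to 33.3% and 41.8% at 6 h. Those libraries were picked by their values in these same data, so the narrower spread follows from the choice. The calls of this fit therefore describe the kept libraries and are not independent tests. At 1.5 h, 7 members then passed, all lower: Cxcl2 (-0.40), Cxcl10 (-1.28), Cx3cl1 (-0.78), Ccl3 (-2.52), Ccl4 (-2.21), Ccl7 (-0.26) and Ccl20 (-1.06). At 6 h 9 passed, with Cxcl2 (2.10), Ccl2 (0.69), Ccl3 (0.90), Ccl4 (1.51) and Ccl7 (1.19) higher and Cxcl1 (-0.70), Cxcl10 (-1.40), Cxcl12 (-0.94) and Cx3cl1 (-0.55) lower. The 2 libraries kept at 1.5 h were those with microglia levels of 3.36 and 3.37. At 3 h 7 passed, 3 higher and 4 lower, where 31.4% of genes were called higher and 39.6% lower. These counts lie near the shares of all genes at 3 h, as does the count of members lower at 6 h. Without 1.5 h replicate 3 alone, where 13.4% of genes were called higher and 16.7% lower, 3 members passed at 1.5 h, Cx3cl1 (-0.78), Ccl3 (-2.51) and Ccl4 (-2.21).

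The genes whose log2 levels followed Cxcl2 most closely over the 12 libraries, among 9118 genes with a mean of at least 1 CPM, were Nfkb2 (Pearson r = 0.990), Nfkbie (0.986), Csf3 (0.983), Gpn2 (0.978), Nupl2 (0.974) and Ndrg1 (0.973). Nfkb2 encodes a precursor subunit of NF-κB, Nfkbie an inhibitor of it, and Csf3 the granulocyte colony-stimulating factor, which drives neutrophil production. Nfkb2 measured 112.5, 107.8 and 110.5 CPM in controls, 85.6, 89.9 and 143.2 CPM at 1.5 h, 204, 189 and 193 CPM at 3 h and 334, 267 and 290.2 CPM at 6 h. Csf3 measured 4.88, 3.71 and 2.82 CPM in controls, 3.52, 4.08 and 9.16 CPM at 1.5 h, 14.3, 13.3 and 12.001 CPM at 3 h and 36.6, 30.9 and 31.4 CPM at 6 h. As with Cxcl2, replicate 3 was the high library at 1.5 h in both. At 6 h Nfkb2 rose by 1.43 ± 0.18 (adjusted p = 0.000423), Nfkbie by 1.11 ± 0.13 (adjusted p = 0.00026) and Csf3 by 3.11 ± 0.35 (adjusted p = 0.00023), each in all 28 alternative settings. These libraries share their groups, so the correlations describe a like time course and no more.

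**Figure D5:**
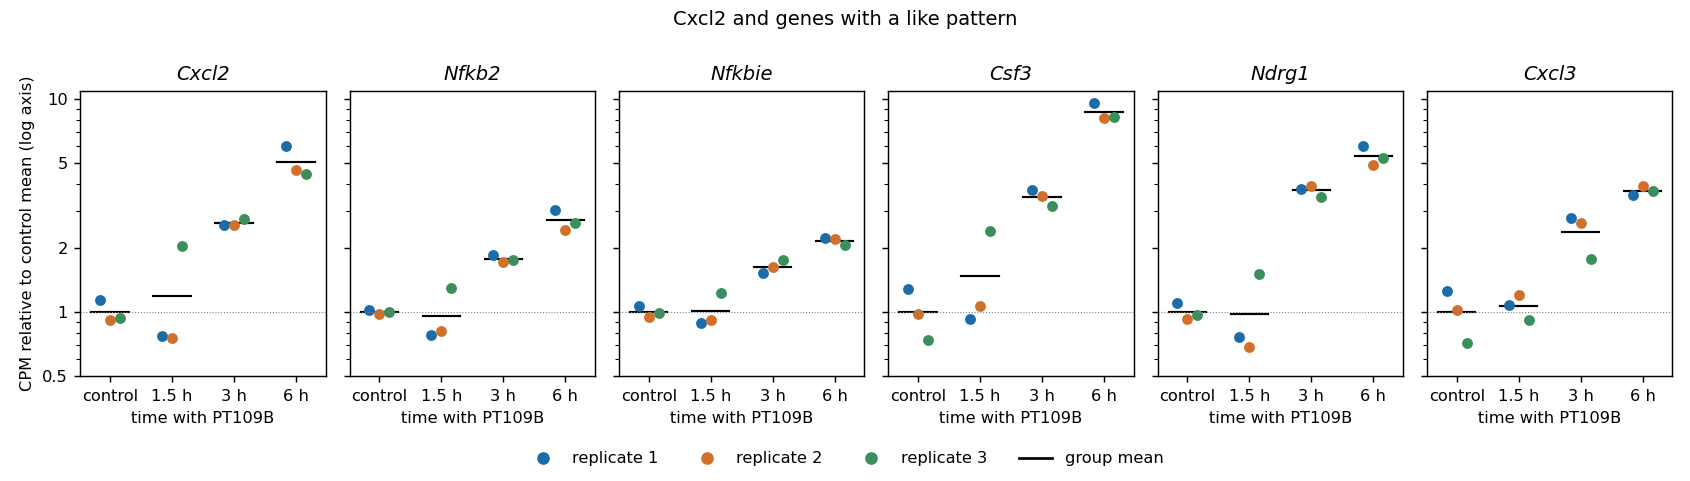
Cxcl2, 4 of the 6 genes most like it and Cxcl3, with time with PT109B on the x axis and CPM divided by the control mean on a logarithmic y axis; points are libraries coloured by replicate number and bars are group means (n = 3). In the first 5 panels the third replicate at 1.5 h lies above the other 2 of its group, and in all 6 the 6 h libraries lie above every other library.

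The other members had other nearest patterns. Ccl2 was most like Ccl7 (r = 0.939), Cxcl2 (0.930) and Ier3 (0.926), and Ccl7 like B3galnt1, Tnfrsf22 and Fjx1 (0.975 to 0.985). Ccl3 and Ccl4 were like each other (r = 0.985). Cxcl12 was most like Ppp1r12c, Dnajb4 and Brms1l (0.969 to 0.976), Cx3cl1 like Plscr2, Dennd2d and Stap2 (0.939 to 0.961), Cxcl1 like Capza2, Eif2s3x and Akr1e2 (0.915 to 0.933), and Ccl20 like Eps15l1, Rab3gap1 and Hspa8 (0.933 to 0.966).

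Among signals that induce chemokines and their receptors, 1 of 23 tested genes was higher and 1 lower at 1.5 h, 5 were higher and none lower at 3 h, and 6 were higher and 3 lower at 6 h. Over all tested genes the shares called higher and lower were 1.95% and 1.37% at 1.5 h, 13.50% and 7.94% at 3 h and 18.7% and 11.8% at 6 h, and they are the background for this list and the lists that follow. Lif, a cytokine of the interleukin-6 family, rose from 54.4 ± 2.81 CPM to 1003 ± 173 CPM at 1.5 h, before any of the 10 chemokines passed, and stood at 749 ± 103 CPM at 6 h (4.21 ± 0.24 and 3.78 ± 0.24 on the log2 scale, adjusted p = 1.77e-05 and 1.34e-05). Il6 rose by 1.96 ± 0.45 at 3 h (adjusted p = 0.0142) and by 2.93 ± 0.46 at 6 h (adjusted p = 0.00122), and the first of these calls was lost without 3 h replicate 2. Tnf, an inducer of Cxcl2 and Ccl2, went from 44.5 ± 7.77 CPM to 160.1 ± 22.2 CPM at 6 h and rose by 1.85 ± 0.60 (adjusted p = 0.0403), in 15 of 28 alternative settings: the call was lost under total-count and implied-depth scaling, with no filter, in 2 fits to FPKM, and without any 1 control or 6 h library or 3 h replicate 1 or 2 (1.61 to 2.18 over all settings).

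Of 21 tested NF-κB subunits and feedback genes, none was higher and 1 lower at 1.5 h, 7 were higher and 1 lower at 3 h, and 8 were higher and 2 lower at 6 h (all genes: 13.50% higher and 7.94% lower at 3 h, 18.7% and 11.8% at 6 h). Besides Nfkb2 and Nfkbie, Ikbkg, the regulatory subunit of the IκB kinase, rose by 0.74 ± 0.15 at 3 h and 1.24 ± 0.15 at 6 h (adjusted p = 0.00727 and 0.000338), the first lost under total-count scaling (0.41). Nfkb1 (0.18 ± 0.26) and Nfkbia (0.54 ± 0.28) did not pass at 6 h (adjusted p = 0.62 and 0.159). The median log2 change of the list was -0.24, -0.16 and 0.29 at the 3 times.

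Of genes that process chemokines or hold them on heparan sulfate, 7 of 17 were higher and 1, Adam10, lower at both 3 h and 6 h, and 1 was higher at 1.5 h (all genes: 13.50% higher and 7.94% lower at 3 h, 18.7% and 11.8% at 6 h). Sdc4, a heparan sulfate proteoglycan of the cell surface, rose at every time, from 144.5 ± 5.37 CPM to 309.6 ± 10.7, 409 ± 25.1 and 315 ± 41.4 CPM (1.10 ± 0.12, 1.50 ± 0.12 and 1.12 ± 0.12, adjusted p = 0.000587, 3.65e-05 and 0.000179). Mmp3, a matrix protease, rose from 12.4 ± 3.96 CPM to 42.2 ± 13.9 CPM at 3 h and 76.1 ± 28.9 CPM at 6 h (1.77 ± 0.40 and 2.61 ± 0.40, adjusted p = 0.0124 and 0.00116), the 3 h call being lost without control replicate 1 or 2 or 3 h replicate 2. Gpc1 (0.86 ± 0.30 at 6 h, adjusted p = 0.0531) and Sdc2 (0.47 ± 0.28, adjusted p = 0.213) did not pass.

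Chemokine mRNAs are short-lived, and Zfp36 (tristetraprolin) and its relatives promote the decay of such transcripts. Zfp36 rose from 50.1 ± 9.86 CPM to 164 ± 22.6 CPM at 1.5 h (1.72 ± 0.19, adjusted p = 0.000663) and stood at 104.4 ± 22.8 and 101.2 ± 3.32 CPM at 3 h and 6 h. Zfp36l1 rose by 1.11 ± 0.21, 1.14 ± 0.21 and 0.81 ± 0.21 (adjusted p = 0.0168, 0.00436 and 0.0146), with the 1.5 h call lost without any 1 control or in a fit of the 2 groups alone and the 6 h call without control replicate 1 or 2 or 6 h replicate 2 or 3. Tia1, an RNA-binding protein that represses translation of such transcripts, fell by 1.28 on the log2 scale at 6 h (adjusted p = 0.0024). Of the 16 tested genes of this list 2, 3 and 3 were higher and 0, 2 and 4 lower at the 3 times, against 1.95%, 13.50% and 18.7% higher and 1.37%, 7.94% and 11.8% lower among all genes.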

How the data were processed

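Libraries were prepared from total RNA with the NEBNext Ultra kit, per the labels' protocols. The authors deposited 1 table that holds, for each gene in each library, an estimated count and an FPKM value. The submitters' processing notes list StringTie 2.2.1 without its role. The sources used here give no aligner, build or gene models. Of the deposited counts 9.49% were not whole, in 1343 genes but in none of the 10 chemokines, and all were rounded. The table holds part of a rat's genes, so adjusted p-values refer to this set. For a symbol on more than 1 line (58) the line with the highest mean count was used.

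In R 4.3.3 with edgeR 4.0.16, 9491 genes passed filterByExpr (230 did not) and were fitted in 1 robust quasi-likelihood model of all 12 libraries by group, after TMM scaling. Fold changes use a prior count of 0.125, log2 levels one of 2. Alternatives were other scalings and filters, DESeq2 1.42.0, limma 3.58.1 (voom, or trend on log2 FPKM plus 0.1 or 1), the microglia level as a covariate, a replicate block and libraries left out. The code was tested on simulated data. From each list of related genes, up to 4 called genes with the largest change and up to 2 uncalled with the highest level are eligible for naming, of which some are given, besides genes among the most correlated with each member; some are not reported here. Adam10 and the neighbouring pairs were named after their values were seen. The members and all lists were chosen with earlier results of these data known.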

Additional observations from a re-analysis of the deposited data

How the results depend on the processing

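At 6 h the calls of Cxcl2, Ccl7, Ccl2 and Cxcl12 held under all 28 alternatives. Of 834 single-gene values against control under alternatives, 744 kept direction and call, 25 lost a call, 32 gained one in the same direction and 33 turned sign. None of those 33 fell at a time at which that gene passed the main test. Some of the 33 passed with the turned sign, all without the 3 libraries that stood apart. They were Cxcl2 (-0.40, adjusted p = 0.00377) and Ccl7 (-0.26, adjusted p = 0.0171) at 1.5 h and Ccl3 (-0.45, adjusted p = 0.00488) at 3 h. The cause was not tested where none is named. The lowest libraries of Ccl3 and Ccl20 held 170 and 178 estimated counts.

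Leaving out 1 library, members called were 0 to 3 at 1.5 h (3 without 1.5 h replicate 3), 1 to 4 at 3 h (1 without control replicate 2 or 3 h replicate 1), 4 to 6 at 6 h, 0 to 7 at 3 h against 1.5 h, 0 to 1 at 6 h against 3 h and 3 to 7 at 6 h against 1.5 h. Over all tested genes 88 to 1278 were then higher and 25 to 1593 lower at 1.5 h. At 3 h these were 586 to 1864 and 260 to 1833, and at 6 h 993 to 2190 and 623 to 1835. At 1.5 h leaving out 1 library gave -0.39 to 0.50 for Cxcl2, -1.28 to 0.24 for Cxcl10, -0.12 to 0.09 for Cxcl12 and -0.25 to 0.44 for Ccl7. At 3 h it gave -0.93 to 0.05 for Cxcl10, -0.08 to 0.19 for Cx3cl1, -0.45 to 0.79 for Ccl3 and -0.41 to 0.14 for Ccl20.

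Without the 3 libraries that stood apart, 7 members passed at 1.5 h, 7 at 3 h, 9 at 6 h, 9 at 3 h against 1.5 h and 5 at 6 h against 3 h. Of all tested genes 35.2% were then higher and 34.7% lower at 3 h against 1.5 h, and 15.4% and 18.7% at 6 h against 3 h. Signs turned without those 3 libraries for Cxcl2 (-0.40), Cxcl12 (0.09) and Ccl7 (-0.26) at 1.5 h and for Cx3cl1 (-0.08), Ccl3 (-0.45) and Ccl20 (0.14) at 3 h. With the microglia level as a covariate 2 members passed at 1.5 h, where 1.26% of genes were higher and 0.569% lower. At 6 h against 3 h 2 members passed with it, where 5.88% were higher and 4.35% lower. Signs turned with that covariate at 1.5 h for Cxcl10 (1.05), Cx3cl1 (0.14), Ccl3 (0.30) and Ccl4 (0.74).

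Cxcl12 at 1.5 h was 0.01 with RLE size factors and with DESeq2. Cx3cl1 at 3 h was -0.19 under total-count scaling, -0.16 under implied-depth scaling and -0.18 in each of the 3 limma-trend fits to FPKM, in which Ccl3 was -0.06. At 3 h against 1.5 h, 2 members passed under total-count scaling, 2 under implied-depth scaling and 0 in a fit of those 2 groups alone, and at 6 h against 1.5 h such a fit called 2. Over all tested genes at 3 h, 1281 were higher and 754 lower, and 650 and 1887 under total-count scaling.

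With the replicate block 0, 3 and 5 members passed at 1.5, 3 and 6 h, 2 at 3 h against 1.5 h, 0 at 6 h against 3 h and 6 at 6 h against 1.5 h. The labels do not say that numbers pair libraries: deviations of same-numbered libraries correlated at -0.657 to 0.599, over 0.1 in 8 of 18 pairs, and 6 of 12 libraries correlated best with their own number.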

Other observations

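Ccl6 and Ccl12, chemokines typical of microglia and macrophages and outside the 10, varied widely between libraries of 1 group. Ccl6 measured 149 to 158 CPM in controls, 6.74, 8.70 and 197.3 CPM at 1.5 h, 49.3, 50.04 and 163.5 CPM at 3 h and 163.2, 48.0 and 33.9 CPM at 6 h. Ccl12, a ligand of Ccr2, measured 17.4, 11.6 and 40.5 CPM in controls, 2.62, 1.96 and 56.4 CPM at 1.5 h, 11.1, 14.6 and 114.6 CPM at 3 h and 164.7, 15.8 and 16.8 CPM at 6 h. In each treated group the library that stood apart held the highest value of both, and neither passed the test at any time. Il1b, the interleukin-1 beta gene, was highest in the same libraries, with 241.7 CPM at 1.5 h, 289 CPM at 3 h and 489 CPM at 6 h against 77.9 to 101.0 CPM in controls.

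Of 11 other chemokines tested, 2 were higher at 3 h (Cxcl3 and Cxcl14) and 2 higher and 1 lower at 6 h (Cxcl3 and Xcl1, and Cxcl6). These counts lie near the shares of all tested genes, 13.50% higher and 7.94% lower at 3 h and 18.7% and 11.8% at 6 h. Xcl1, a lymphocyte attractant, averaged 0.665 ± 0.227 CPM in controls and 7.89 ± 9.42 CPM at 6 h, with a log2 change of 3.57 ± 0.99 (adjusted p = 0.0206), and it was 1.80 without the 3 libraries that stood apart (adjusted p = 0.00728). Its call was lost with limma-voom, with limma-trend on log2(FPKM + 1) and without any 1 control or 6 h replicate 1, and that of Cxcl14 in 17 of 28 alternative settings, among them leaving out control, 1.5 h or 3 h replicate 1 or 2 or 6 h replicate 2 or 3. Among 7 tested receptors, Ackr4, a scavenger of Cc chemokines, rose at 3 h by 1.47 ± 0.44 (adjusted p = 0.0365), from 3.08, 4.14 and 2.55 CPM to 11.3, 11.1 and 4.86 CPM, in 15 of 28 alternative settings. It also passed at 6 h (1.29 ± 0.44, adjusted p = 0.0447), in 11 of 28 settings, with 0.60 to 1.62 over all of them, and that call was lost without any 1 control, replicate 1 or 2 of 1.5 h or 3 h, or replicate 2 or 3 of 6 h. Ccrl2 rose at 6 h by 1.97 ± 0.68 (adjusted p = 0.048), from 2.31, 2.43 and 2.90 CPM to 15.0, 8.42 and 6.51 CPM, in 13 of 28. The Ackr4 call at 3 h and that of Ccrl2 were lost without any 1 control or 3 h replicate 1 or 2, the former also without 1.5 h replicate 2 and that of Ccrl2 without any 1 library of 6 h (0.66 to 1.71 and 1.15 to 2.26 over all settings).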
